A study of Mus musculus with 16 samples.

Results

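The genotype by ovalbumin interaction is the difference between 2 responses: the change with ovalbumin (OVA, the main protein of egg white and a common model allergen) in beta6 knockout mice, minus the same change in wild type mice. It draws on all 16 of 16 arrays of the series, in 4 groups of 4. The ko_OVA mice lacked integrin beta6 (gene Itgb6) and received 20 ug of OVA into the peritoneum on days 1, 4 and 7, then 10 ug of OVA into the nose each week for 9 weeks. The ko_saline mice had the same genotype and received saline at every step. The wt_OVA and wt_saline mice were wild type and were treated in these same 2 ways. All mice were of the FvB strain, 6 to 8 weeks old at sensitization, and airway epithelium was taken 24 h after the final challenge. The knockout is labelled as beta6 knockout with no cell type restriction, and the labels do not say whether the mice were littermates or whether 1 array is 1 mouse.

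Integrin alpha v beta6 sits on epithelial cells and releases active TGF-beta from its latent complex. Mast cells of the mouse come in types that differ in their granule proteases: connective tissue mast cells hold the chymase Mcpt4, the chymase Cma1, tryptases and carboxypeptidase Cpa3, whereas mucosal mast cells of inflamed epithelium hold Mcpt1 and Mcpt2. TGF-beta is known to induce Mcpt1 in cultured mouse mast cells. OVA-driven inflammation is also known to turn airway secretory cells into mucous cells through IL-13.

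Signals are given as log2 of the processed signal relative to the 75th percentile of the array, with a common floor at -3.32, or unlogged in units of that percentile, called the linear scale. The floor is the lowest signal called well above background on ko_OVA 4, the array where this limit was highest. On wt_saline 2, the next highest, the limit was -4.21. Epithelial markers were high on every array: the club cell secretoglobin Scgb1a1 lay between 8.41 and 10.69, the ciliated cell factor Foxj1 between 5.26 and 6.24 and the basal keratin Krt5 between 5.98 and 7.64. The 75th percentile of ko_OVA 4 was 78.0 intensity units and the highest, on ko_saline 3, was 793. The mean of the 24 striated muscle genes ran from -2.72 to -1.73 in ko_OVA and -2.52 to 2.69 in ko_saline, against -2.70 to 2.29 in wt_OVA and -2.38 to 0.43 in wt_saline. The Itgb6 probe read -0.97, -1.71, -0.96 and -1.02 in ko_OVA and -1.02, -0.78, -0.73 and -0.92 in ko_saline, against -0.56, -0.57, -0.59 and -0.64 in wt_OVA and -0.88, -0.93, -0.81 and -0.39 in wt_saline. Its interaction was -0.47 ± 0.23 (SE; adjusted p = 0.993). A second, dimmer Itgb6 probe had -0.53 ± 0.23, with OVA responses of -0.19 in ko and 0.33 in wt. The first probe thus gave signal in both genotypes. The position of the probes relative to the disrupted part is not given in the sources used here, and Itgb6 does not check the genotype labels.

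The 6 measured connective tissue mast cell proteases had a median OVA response of 0.08 in ko and 2.09 in wt, and the mucosal proteases Mcpt1 and Mcpt2 had 0.70 in ko and 3.53 in wt. The 22 mucous cell genes had 1.58 in ko and 1.45 in wt. No gene passed the limma test of the interaction on the log2 scale after Benjamini-Hochberg adjustment over 18569 genes (0 higher and 0 lower, 0% of the genes tested). At an unadjusted p under 0.05 there were 279 genes with a higher response in ko (1.5%) and 290 with a lower one (1.56%), 569 in all (3.06%). The smallest adjusted p was 0.155, for Tph1. The median SE of the interaction was 0.24, against 0.17 for either OVA response alone. The 95% interval of the interaction had a median half-width of 0.51, and in 88.8% of genes it was under 1. In the same fit OVA changed 139 genes in ko (0.749%) and 485 in wt (2.61%), and 966 genes (5.2%) passed an unadjusted p under 0.05 in the same direction in both genotypes. The OVA calls were 89 higher (0.479%) and 50 lower (0.269%) in ko, and 289 higher (1.56%) and 196 lower (1.06%) in wt. These counts do not test whether the responses differ. On the linear scale 1 gene, the C-type lectin receptor gene Clec4n, passed (0.00539% of genes).

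**Figure D1:**
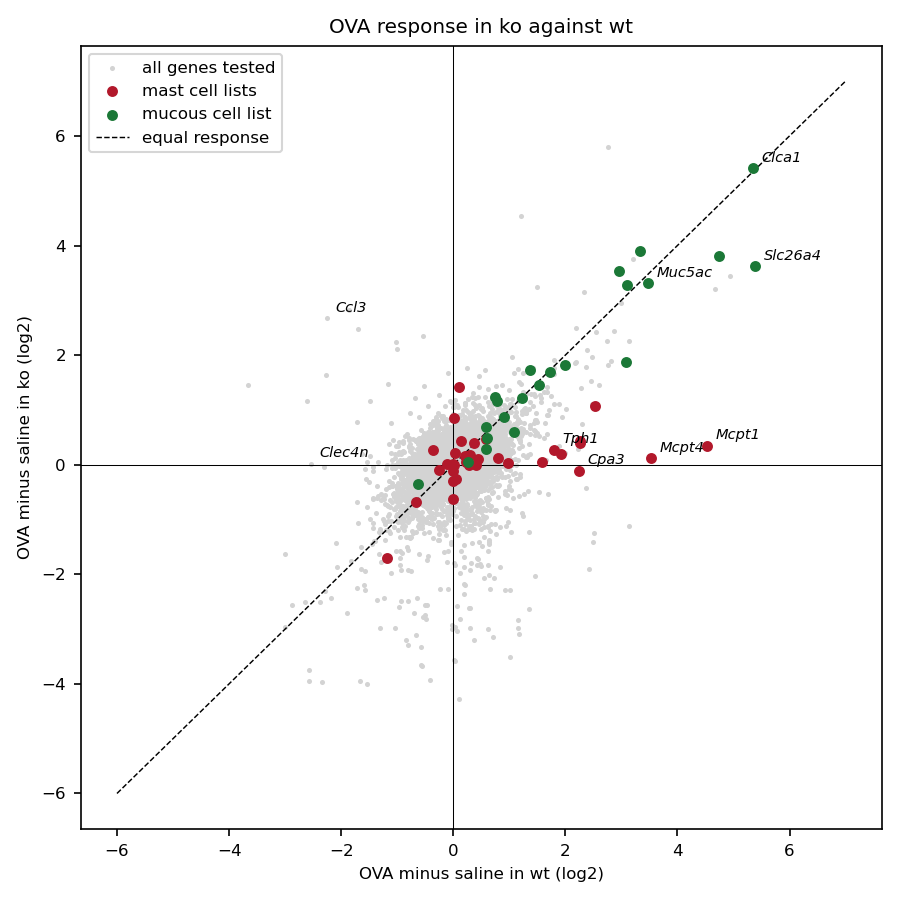
Each point is a gene, with the OVA response (OVA minus saline, log2) in ko on the vertical axis and in wt on the horizontal axis. Mucous cell genes (green) have interactions from -1.76 to 0.59. Clca1 lies at 5.41 in ko and 5.34 in wt, and Slc26a4 at 3.63 and 5.39. Several mast cell genes (red) lie near 0 in ko and between 1.58 and 4.53 in wt. The mast cell receptor and amine lists have median interactions of -0.08 and -0.19.

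Of the 12 genes with the smallest p among those with a lower response in ko, 7 were members of the 4 mast cell lists, against 0 of the 12 with a higher response. The lists held 43 genes, of which 35 were measured, among 12853 tested genes with a symbol. Of these 35, 26 had an interaction below 0, where 48.3% of all genes tested lay below 0 and 51.7% above. At an unadjusted p under 0.05, 10 lay below 0 (1.56% of all genes) and 0 above it (1.5% of all genes). On the linear scale 21 of the 35 lay below 0 (49.2% of all genes), 3 of them at an unadjusted p under 0.05 (1.38% of all genes), with 0 above it. No member passed the adjusted test on either scale. Earlier results of these data had shown the mast cell genes, so this count is a description.

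The promoters of 3 proteases with the largest interactions are shown because the mucosal Mcpt1 and the connective tissue Mcpt4 differ in cell type yet share most of these bases. Each line gives the 250 bases before the RefSeq transcription start of build GRCm38.p6, on the strand of the gene, and capitals mark GATAA, the core recognised by GATA factors, searched on both strands.
Mcpt1: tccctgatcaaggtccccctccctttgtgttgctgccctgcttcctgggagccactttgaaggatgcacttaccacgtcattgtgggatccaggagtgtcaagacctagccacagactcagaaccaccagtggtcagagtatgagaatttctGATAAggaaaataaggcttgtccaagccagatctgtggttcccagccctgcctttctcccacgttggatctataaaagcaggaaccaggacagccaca
Mcpt4: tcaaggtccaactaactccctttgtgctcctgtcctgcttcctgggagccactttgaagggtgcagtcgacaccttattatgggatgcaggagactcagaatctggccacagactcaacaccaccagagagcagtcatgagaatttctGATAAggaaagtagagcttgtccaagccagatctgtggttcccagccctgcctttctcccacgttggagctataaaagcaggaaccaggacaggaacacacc
Cpa3: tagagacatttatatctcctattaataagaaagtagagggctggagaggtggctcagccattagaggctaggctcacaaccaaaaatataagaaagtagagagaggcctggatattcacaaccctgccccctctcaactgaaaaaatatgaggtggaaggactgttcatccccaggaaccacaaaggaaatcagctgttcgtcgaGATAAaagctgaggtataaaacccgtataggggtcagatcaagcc
The windows are chr14:56017714-56017963 on the plus strand for Mcpt1, chr14:56062311-56062560 on the minus strand for Mcpt4 and chr3:20242182-20242431 on the minus strand for Cpa3. Mcpt1 and Mcpt4 were identical at 86.4% of aligned bases, against 55.1% for Mcpt1 with Cpa3 and 56.4% for Mcpt4 with Cpa3. Each window held 1 GATAA, starting at base -98 in Mcpt1, -102 in Mcpt4 and -45 in Cpa3. The motif occurred in 22.6% of the 32851 RefSeq promoter windows of that length, and a match is not evidence of a bound site.

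Mcpt1 and Mcpt2, the proteases of mucosal mast cells, rose with OVA in wt. Mcpt1 read -3.32, -2.04, -3.21 and -3.32 in ko_OVA and -3.32, -3.32, -3.32 and -3.32 in ko_saline, against 2.37, -0.54, 1.02 and 1.99 in wt_OVA and -3.32, -3.32, -3.32 and -3.32 in wt_saline. Both saline groups lay at the floor on every array, and all 4 wt_OVA arrays lay above all other arrays. The OVA response was 0.35 ± 0.47 in ko (adjusted p = 0.936) and 4.53 ± 0.47 in wt (adjusted p = 0.000232). Both values are measured against the floor. Before flooring, the linear signal was 0.094, 0.243, 0.108 and 0.069 in ko_OVA, against 0.023, 0.018, 0.030 and 0.015 in ko_saline. A rise in ko below the floor is thus not counted in the ko response. The interaction was -4.18 ± 0.67 (SE; adjusted p = 0.190). It was -3.44 with the floor lower by 2 and -1.61 with no floor and 1 added to the signal. Mcpt2 read -1.97, -2.46, -2.19 and -2.01 in ko_OVA and -2.93, -3.32, -3.32 and -3.32 in ko_saline, against -0.20, -1.43, -0.56 and -0.77 in wt_OVA and -3.32, -3.32, -3.32 and -3.13 in wt_saline. Mcpt2 rose with OVA in both genotypes, by 1.06 ± 0.20 in ko (adjusted p = 0.0255) and 2.53 ± 0.20 in wt (adjusted p = 5.11e-05), with no overlap between the OVA groups. The ko call was lost, with adjusted p up to 0.0854, without any 1 of ko_OVA 1, 3 or 4 or ko_saline 2, 3 or 4. Its interaction was -1.47 ± 0.29 (SE; adjusted p = 0.498). On the linear scale the interactions were -2.83 ± 1.00 for Mcpt1 and -0.405 ± 0.105 for Mcpt2, below 0 on both scales. The median log2 interaction of the pair was -2.82. A difference in the number of mast cells and one in RNA per cell cannot be told apart in this bulk tissue, here or for the genes below. The probes of related chymases may share hybridization, which was not tested.

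**Figure D2:**
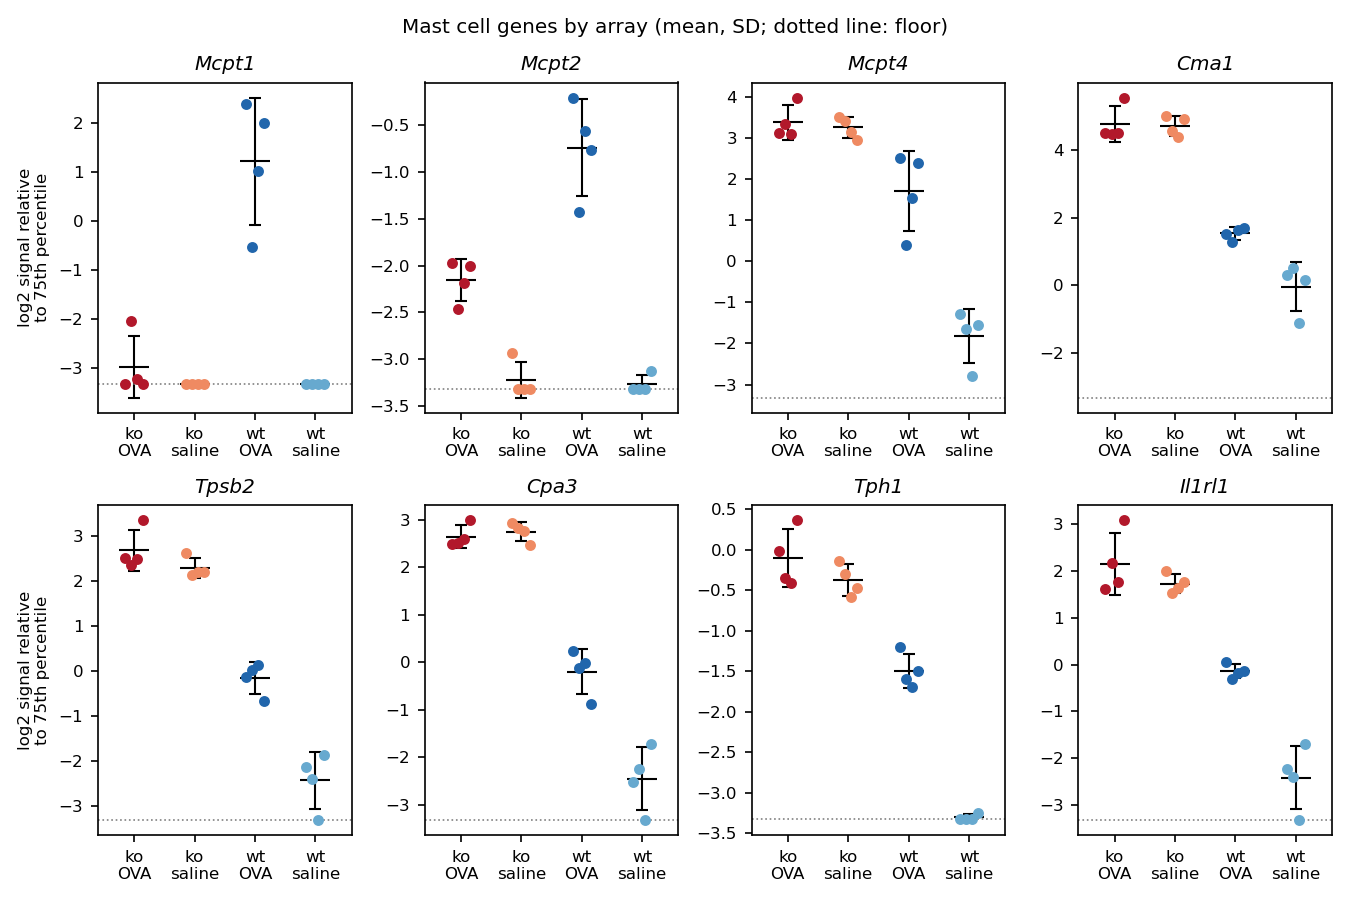
Log2 signal of 8 mast cell genes on each array (points), with the mean and SD of each group and the floor as a dotted line. Mcpt1 and Mcpt2 are highest in wt_OVA, whereas Mcpt4, Cma1, Tpsb2, Cpa3, Tph1 and Il1rl1 lie high in both ko groups and rise with OVA in wt.

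The connective tissue proteases were already high in ko without OVA. Mcpt4, a chymase, read 3.12, 3.34, 3.09 and 3.99 in ko_OVA and 3.52, 3.43, 3.15 and 2.96 in ko_saline, against 2.52, 0.40, 1.54 and 2.40 in wt_OVA and -1.28, -1.66, -2.78 and -1.55 in wt_saline. The 2 ko groups overlapped, and in wt every OVA array lay above every saline array. Mcpt4 rose by 3.53 ± 0.42 with OVA in wt (adjusted p = 0.000625), its response in ko was 0.12 ± 0.42 (adjusted p = 1.00) and the interaction was -3.41 ± 0.60 (SE; adjusted p = 0.240). After saline it was 5.08 ± 0.42 higher in ko than in wt (adjusted p = 1.35e-05). Cpa3, a carboxypeptidase, read 2.48, 2.50, 2.58 and 2.99 in ko_OVA and 2.93, 2.83, 2.76 and 2.47 in ko_saline, against 0.23, -0.13, -0.02 and -0.88 in wt_OVA and -2.51, -2.25, -3.32 and -1.71 in wt_saline. Its OVA response was -0.11 ± 0.29 in ko (adjusted p = 1.00) and 2.25 ± 0.29 in wt (adjusted p = 0.00104), and the interaction was -2.36 ± 0.41 (SE; adjusted p = 0.240). The tryptase Tpsb2 had an interaction of -1.87 ± 0.41 (SE; adjusted p = 0.676), the chymase Cma2 -1.74 ± 0.41 (SE; adjusted p = 0.830) and the chymase Cma1 -1.54 ± 0.45 (SE; adjusted p = 0.993). Each of these 3 rose with OVA in wt, by 2.27, 1.93 and 1.58, with adjusted p of 0.00102, 0.00314 and 0.0173. The wt call of Cma1 was lost without wt_OVA 1 or wt_OVA 3, with adjusted p up to 0.0596. The tryptase Tpsg1 was at the floor on 3 of 4 wt_OVA and 4 of 4 wt_saline arrays, and its interaction was -0.63 ± 0.31 (SE; adjusted p = 0.993). All 6 measured members of the list had an interaction below 0, with a median of -1.81 against 0.01 over all genes.

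Receptors and amine genes were less uniform. Tph1, the tryptophan hydroxylase that starts serotonin synthesis in mast cells, read -0.01, -0.35, -0.41 and 0.36 in ko_OVA and -0.14, -0.30, -0.58 and -0.47 in ko_saline, against -1.21, -1.59, -1.69 and -1.50 in wt_OVA and -3.32, -3.32, -3.32 and -3.24 in wt_saline. Its response was 0.27 ± 0.16 in ko (adjusted p = 0.667) and 1.80 ± 0.16 in wt (adjusted p = 8.4e-05), and the interaction was -1.53 ± 0.22 (SE; adjusted p = 0.155). Every wt_saline array except wt_saline 4 had Tph1 at the floor, so its wt response is bounded and that group's spread is reduced. The Tph1 interaction was -2.22 with the floor lower by 2 and -0.21 with no floor and 1 added to the signal. Il1rl1, the receptor for IL-33, read 1.61, 2.16, 1.75 and 3.09 in ko_OVA and 1.99, 1.53, 1.63 and 1.76 in ko_saline, against 0.05, -0.32, -0.17 and -0.13 in wt_OVA and -2.23, -2.41, -3.32 and -1.69 in wt_saline. Il1rl1 rose with OVA in wt by 2.27 ± 0.32 (adjusted p = 0.00211), against 0.43 ± 0.32 in ko (adjusted p = 0.784), with an interaction of -1.84 ± 0.46 (SE; adjusted p = 0.964). The transcription factor gene Gata2 had an interaction of -0.94 ± 0.38 (SE; adjusted p = 0.993). A second Gata2 probe had -0.44 ± 0.31. Fcer1a, the alpha chain of the IgE receptor, had -0.11 ± 0.28 (SE; adjusted p = 0.993), the amine transporter gene Slc18a2 -0.19 ± 0.29 (SE; adjusted p = 0.993) and the histidine decarboxylase gene Hdc 0.02 ± 0.24 (SE; adjusted p = 0.999). Every wt_saline array had Fcer1a and Slc18a2 at the floor, so their wt responses are bounded by the floor. With the floor lower by 2 their interactions were -1.38 and -1.91, and that of Hpgds, a prostaglandin D synthase gene, was -1.48, against -0.29 with the common floor. Those of Gata2, Tpsg1 and Chst1, a sulfotransferase gene, were -1.96, -1.98 and -1.56, against -0.94, -0.63 and -0.67 with the common floor. Hdc lay between 5.35 and 5.86 in ko_OVA and between 4.98 and 5.58 in ko_saline, against 5.27 to 5.72 in wt_OVA and 4.82 to 5.42 in wt_saline. Of the 14 measured receptors and identity factors 9 lay below 0 (median -0.08), and of the 13 amine and granule genes 9 did (median -0.19). The largest interactions above 0 in these lists were 1.32 for Il4, 0.85 for Srgn and 0.63 for Il3ra. With 1 array left out they ran from 0.34 to 1.80, 0.32 to 1.41 and 0.37 to 1.00 in that order. Every saline array had Il4 at the floor.

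A log2 interaction compares fold changes, and a linear interaction compares differences in signal. The 2 can differ where saline levels differ, and those of the connective tissue genes were far higher in ko. On the linear scale the change of Cma1 with OVA was 1.89 ± 6.69 in ko and 1.87 ± 0.275 in wt (SE from the group SDs), and the interaction was 0.0223 ± 6.69. Cma2 (0.419 ± 1.17), Tpsb2 (1.05 ± 1.27) and Il1rl1 (0.807 ± 1.28) had a linear interaction above 0 and a log2 interaction below 0. Each of these 4 linear values was smaller than its SE. The ko_OVA mean of each drew on 1 high array, ko_OVA 4. Its linear signal was 46.94 for Cma1, against 22.03 to 22.89 on the other ko_OVA arrays. For Cma2 it was 8.414 against 3.914 to 4.567, and for Tpsb2 10.3 against 5.155 to 5.748. For Il1rl1 it was 8.493 against 3.056 to 4.476. The sign of these linear values without ko_OVA 4 is not given here. Mcpt4 (-2.41 ± 2.19), Cpa3 (-1.18 ± 0.725) and Tph1 (-0.0775 ± 0.137) were below 0 on both scales. Over all genes 855 (4.6%) had opposite signs on the 2 scales. Of the 434 genes (2.34%) with an unadjusted p under 0.05 on both scales, 434 had the same sign.

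**Figure D3:**
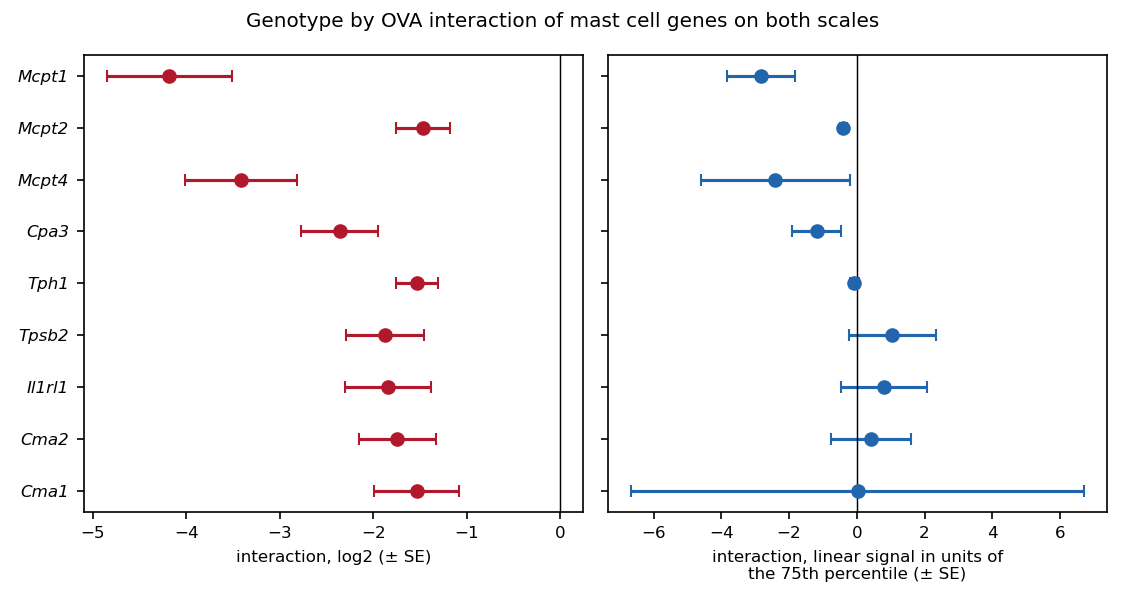
Interaction of 9 mast cell genes with its SE, on the log2 scale (left) and on the linear scale in units of the 75th percentile (right). All 9 lie below 0 on the log2 scale, whereas Cma1, Cma2, Tpsb2 and Il1rl1 lie above 0 on the linear scale with errors that span 0.

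Single arrays decided whether a mast cell gene passed. Without wt_OVA 2, Mcpt1 (-4.77, adjusted p = 0.0010), Mcpt2 (-1.70, adjusted p = 0.0126) and Mcpt4 (-3.85, adjusted p = 0.0126) passed the limma test. Without ko_OVA 4, Tph1 passed (-1.68, adjusted p = 0.0101). Within slide 1, which held 1 array of each group, the interactions were -2.67 for Mcpt1, -1.82 for Mcpt4, -1.47 for Cpa3 and -1.59 for Tph1. Within slide 2 they were -5.31, -4.09, -2.09 and -1.69 in that order. Position on the slide was tied to genotype, since position 2 held wt arrays and position 3 held ko arrays only.

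Genes with an interaction above 0 and a small p included genes of innate immune cells. The group mean of Clec4n, Clec4e, Fpr1, Fpr2 and Serpina3n was highest in wt_saline. Clec4n, which encodes dectin-2, a receptor for fungal sugars on myeloid cells, read -3.32, -0.99, -2.47 and -1.31 in ko_OVA and -1.68, -2.52, -1.51 and -2.44 in ko_saline, against -2.0, -2.88, -2.36 and -2.13 in wt_OVA and 0.00, 0.26, 0.33 and 0.22 in wt_saline. All 4 wt_saline arrays lay above the other 12. Clec4n fell with OVA in wt, by 2.54 ± 0.42 (adjusted p = 0.00489), and its response in ko was 0.02 ± 0.42. The log2 interaction was 2.56 ± 0.59 (SE; adjusted p = 0.746), and the linear one was 0.993 ± 0.120 (adjusted p = 0.0143), with linear changes of 0.0419 in ko and -0.951 in wt. The linear call was lost, with adjusted p up to 0.0636, when any 1 of 7 arrays was left out: ko_OVA 4, ko_saline 4, wt_OVA 1, wt_OVA 3, wt_saline 2, wt_saline 3 or wt_saline 4. It was also lost with array position as a block (adjusted p = 0.187), with the replicate number as a block (adjusted p = 0.154) and on the 2 slides that hold all 4 groups (adjusted p = 0.922). Within slides 1 and 2 the log2 interaction was 3.07 and 0.49. The next smallest adjusted p on the linear scale was 0.978.

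Ccl3, a chemokine of macrophages, read -3.32, 1.37, -0.03 and 2.05 in ko_OVA and -2.73, -3.32, -2.23 and -2.34 in ko_saline, against -1.75, -3.32, -3.12 and -2.02 in wt_OVA and -0.05, -0.30, -0.50 and -0.37 in wt_saline. The ko_OVA arrays spanned the floor to the highest value of all, and the interaction was 4.92 ± 1.19 (SE; adjusted p = 0.879). Without ko_OVA 1 it was 6.03 (adjusted p = 0.00645). Clec4e, a further C-type lectin receptor of myeloid cells, had 3.77 ± 0.91 (SE; adjusted p = 0.879), the formyl peptide receptor genes Fpr1 and Fpr2 had 1.40 ± 0.36 (SE; adjusted p = 0.993) and 0.59 ± 0.13 (SE; adjusted p = 0.676), and Il1b, the IL-1 beta gene, which was chosen after its values were seen, had 4.19 ± 1.15 (SE; adjusted p = 0.993). No ko_saline or wt_OVA array had Fpr2 above the floor. The mean of the 10 measured neutrophil genes ran from -2.81 to -0.77 in ko_OVA and -2.55 to -2.03 in ko_saline, against -2.76 to -1.06 in wt_OVA and -2.33 to -1.52 in wt_saline. The part of such cells in these values was not tested.

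**Figure D4:**
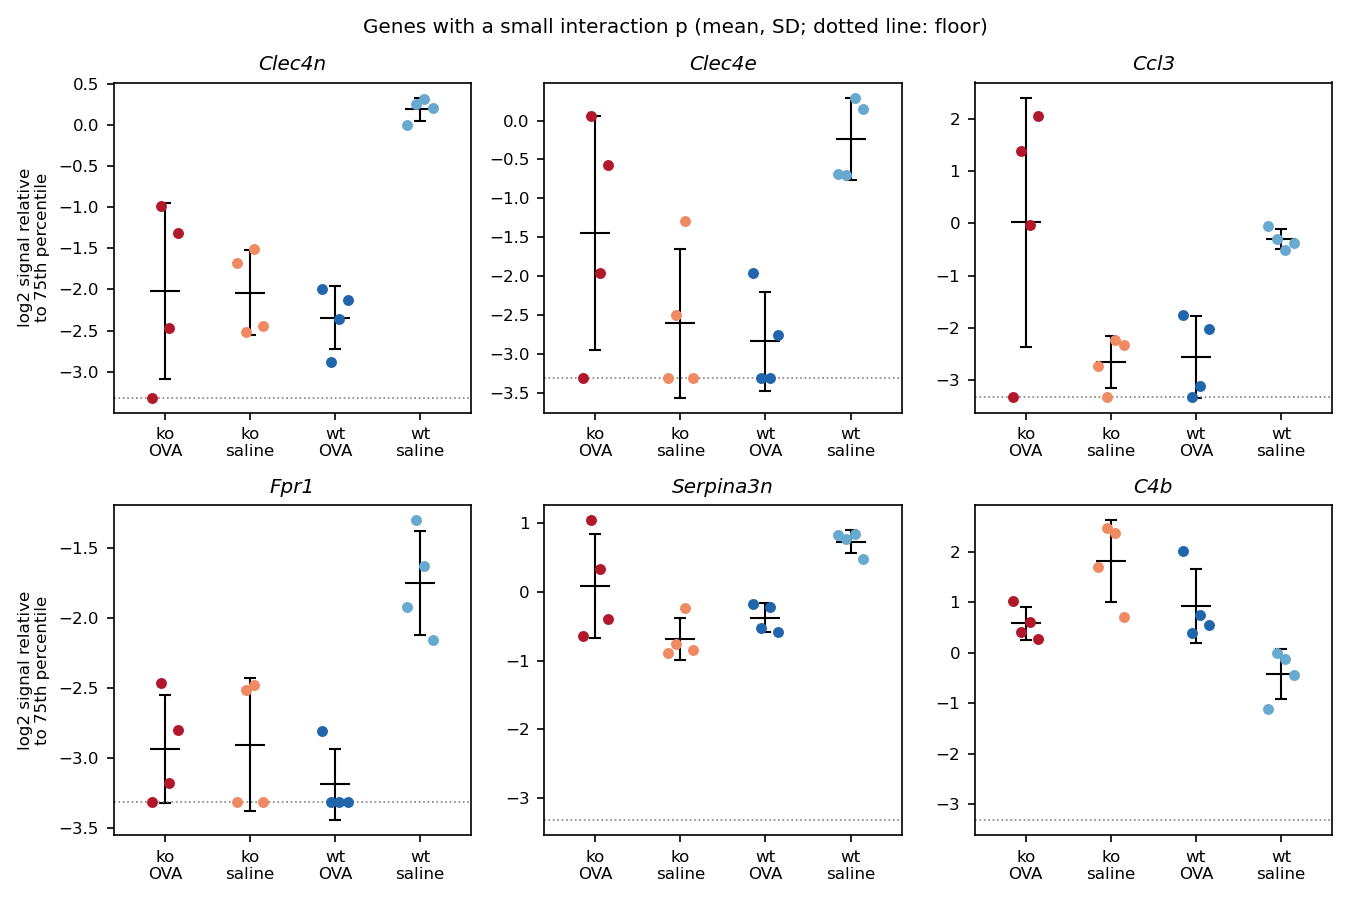
Log2 signal of 6 genes on each array (points), with the mean and SD of each group and the floor as a dotted line. The 4 wt_saline arrays of Clec4n and of Fpr1 lie above all others, and the ko_OVA arrays of Ccl3 spread from -3.32 to 2.05.

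OVA responses of opposite sign, each with an unadjusted p under 0.05, were found for 13 genes (0.07%). Serpina3n, a secreted acute phase serpin, read -0.64, 1.04, 0.33 and -0.40 in ko_OVA and -0.89, -0.76, -0.24 and -0.84 in ko_saline, against -0.17, -0.53, -0.22 and -0.59 in wt_OVA and 0.83, 0.77, 0.84 and 0.48 in wt_saline. Its response was 0.77 ± 0.29 in ko (adjusted p = 0.354) and -1.11 ± 0.29 in wt (adjusted p = 0.0581), with an interaction of 1.88 ± 0.41 (SE; adjusted p = 0.676). C4b, complement component 4, read 1.03, 0.42, 0.60 and 0.28 in ko_OVA and 1.70, 2.48, 2.37 and 0.70 in ko_saline, against 2.01, 0.39, 0.76 and 0.54 in wt_OVA and -1.12, -0.01, -0.13 and -0.44 in wt_saline. Its response was -1.23 ± 0.41 in ko and 1.35 ± 0.41 in wt, with an interaction of -2.58 ± 0.58 (SE; adjusted p = 0.733). Others of this class, chosen after their values were seen apart from Ccl3, were Ccl3, the lipid desaturase gene Scd1 (-1.14 in ko and 0.84 in wt), the cystatin gene Csta1 (1.47 and -1.17) and the Notch ligand gene Dll1 (0.53 and -0.54). None passed the adjusted test in the interaction.

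Further genes with a lower response in ko and a small p were Hs6st2, a heparan sulfate sulfotransferase gene (-0.87 ± 0.17, adjusted p = 0.498), Abcb11 (-0.82 ± 0.17, adjusted p = 0.502), Rprm (-0.98 ± 0.22, adjusted p = 0.676) and Cytip (-0.85 ± 0.20, adjusted p = 0.830). Second probes gave 0.04 ± 0.27 for Cytip, -0.053 ± 0.090 for Hs6st2 and -0.92 ± 0.35 for Rprm. Further genes with a higher response were Shmt1, a serine hydroxymethyltransferase gene (0.79 ± 0.17, adjusted p = 0.676), Sult1c2 (0.99 ± 0.22, adjusted p = 0.741), Car5b (0.70 ± 0.18, adjusted p = 0.964), Pex26 (0.51 ± 0.13, adjusted p = 0.993), Ppp1r3b (0.83 ± 0.22, adjusted p = 0.993) and Pla2r1, the phospholipase A2 receptor gene (0.80 ± 0.21, adjusted p = 0.993). A second Shmt1 probe had 0.86 ± 0.27. Pla2r1 is the protein-coding gene next to Itgb6 on chromosome 2 and was at the floor on all 8 wt arrays. Cytip, Rprm and Abcb11 lie 15, 24 and 34 protein-coding genes from Itgb6, and 4 of the 24 genes named by the smallest p lie on chromosome 2, against 7.95% of the tested genes with a chromosome.

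The mucous cell response was large in both genotypes. Of 22 measured genes of the mucous cell list, 11 rose with OVA in ko (0.479% of all genes) and 14 in wt (1.56% of all genes), the median response was 1.58 and 1.45 in the same order, and 0 members had a log2 interaction p under 0.05 before adjustment, which 3.06% of all genes had. Clca1, a secreted protein of mucous cells, rose by 5.41 ± 0.81 in ko and 5.34 ± 0.81 in wt, on 3 arrays in each OVA group because flagged spots were left out. The ko call was lost without ko_OVA 4 (adjusted p = 0.0534). Its interaction was 0.07 ± 1.15, with a 95% interval of -2.44 to 2.58. The gel-forming mucin gene Muc5ac rose by 3.32 ± 0.53 and 3.47 ± 0.53, with an interaction of -0.15 ± 0.75 and an interval of -1.76 to 1.45. A second Muc5ac probe responded by 0.44 in ko and 0.30 in wt, with an interaction of 0.14 ± 0.32. Itln1, the intelectin gene, had 0.57 ± 0.50 (-0.51 to 1.65), Scin, the scinderin gene, -0.95 ± 0.63 (-2.30 to 0.40) and the anion exchanger gene Slc26a4 -1.76 ± 0.84 (-3.57 to 0.05). These intervals leave room for differences of several-fold. Itln1 had no value on ko_OVA 1 and wt_OVA 2. Slc26a4 and Hspa5 had the smallest p of their lists, and the other mucous, chitinase-like and secretory genes named here were chosen after their values were seen.

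The folding chaperone gene Hspa5 rose by 0.74 ± 0.13 in ko (adjusted p = 0.0257) and 1.13 ± 0.13 in wt (adjusted p = 0.00107). Hspa5 had no value on ko_OVA 3 and wt_OVA 2. The ko call was lost without ko_OVA 2, ko_OVA 4, ko_saline 1 or ko_saline 2, with adjusted p up to 0.120. Its interaction was -0.39 ± 0.19 on the log2 scale (interval -0.80 to 0.03) and -48.2 ± 11.8 on the linear scale. Of the 20 measured folding genes 6 rose with OVA in ko and 9 in wt, against 0.479% and 1.56% of all genes, and 0 had an unadjusted interaction p under 0.05 on the log2 scale, against 3.06% of all genes. On the linear scale Hspa5 had an unadjusted p of 0.0028 (adjusted p = 0.978). The chitinase-like genes Chil3 and Chil4, whose sequences are close, had interactions of 3.32 ± 1.26 (SE; adjusted p = 0.993) and 3.03 ± 0.94 (SE; adjusted p = 0.993) on the log2 scale, and -14.6 ± 29.9 and -2.36 ± 8.85 on the linear scale. Both were lower in ko than in wt after saline, with differences of -5.06 for Chil3 (adjusted p = 0.0349) and -4.02 for Chil4 (adjusted p = 0.0202). Chil4 had no value on ko_OVA 3. The saline call of Chil3 was lost, with adjusted p up to 0.151, without any 1 array other than ko_OVA 1, 2 and 4 and ko_saline 3. That of Chil4 was lost, with adjusted p up to 0.0945, without ko_saline 1, 2 or 4, wt_OVA 1 or wt_saline 2, 3 or 4. Sftpb, a surfactant protein gene, and Scgb1c1, a secretoglobin gene, fell in both genotypes, with interactions of 0.32 ± 0.42 and 0.04 ± 0.67.

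Across the other lists the median interaction can be read against 0.01 for all genes and the counts at an unadjusted p under 0.05 against 1.5% higher and 1.56% lower. All 20 measured club cell genes lay above 0 (median 0.49, 4 higher), as did 12 of 13 basal cell genes (median 0.45, 4 higher), 13 of 16 antimicrobial and acute phase genes (median 0.68, 4 higher) and 15 of 16 immediate early and heat shock genes (median 0.55, 0 higher). The median club cell response was -0.14 in ko and -0.69 in wt, with 2 genes called lower in ko (0.269% of all genes) and 7 in wt (1.06% of all genes). All 9 MHC class II genes (median -0.49, 2 lower) and all 10 endothelial genes (median -0.67, 2 lower) lay below 0. With quantile normalization the median was 0.20 for club cell genes and 0.24 for antimicrobial genes. Within slides 1 and 2, each with 1 array of every group, the median was -0.07 and 0.38 for club cell, 0.90 and 0.33 for basal cell, 0.34 and -0.23 for antimicrobial and 1.1 and 1.08 for immediate early genes. It was 0.05 and -0.98 for MHC class II and 0.75 and -1.01 for endothelial genes, so the sign differed between slides for club cell, antimicrobial, MHC class II and endothelial genes. The immediate early median was 0.18 without wt_saline 1 and 0.86 without wt_saline 2, and the MHC class II median was -0.32 without ko_OVA 1. TGF-beta target genes divided evenly, 11 above and 11 below 0, with a median of -0.01. The member with the smallest p was Gsta3, a glutathione transferase gene, among club cell genes (0.59 ± 0.25), Krt14, a basal keratin gene (1.00 ± 0.39), H2-DMa, an antigen loading gene (-0.66 ± 0.25), and Ager, a gene of alveolar type I cells (-2.01 ± 0.62). Among the TGF-beta targets Fn1, the fibronectin gene, had -4.25 ± 1.11 (SE; adjusted p = 0.993), and without ko_saline 4 it was -5.28 (adjusted p = 0.0325). The other 2 Fn1 probes had -2.46 and -0.19, and within slides 1 and 2 the first probe had -0.90 and -4.51.

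Lists of tissues other than epithelium differed among themselves. Cartilage genes had a median of -0.09 (3 of 6 below 0), red blood cell genes -0.03 (2 of 4) and fibroblast and smooth muscle genes -0.18 (12 of 16). Striated muscle genes had a median of -2.70, with 22 of 24 below 0, and adipocyte genes -1.28, with 8 of 8 below 0. Leaving out each array in turn gave medians between -3.92 and -1.36 for striated muscle, with -1.58 without ko_saline 2 and -1.36 without wt_OVA 1. Within slide 1 it was -1.42 and within slide 2 it was 2.73. The adipocyte median was -1.95 without wt_OVA 1 and -0.82 without wt_OVA 2, and it was -2.82 within slide 1 and -0.04 within slide 2. With the mean of the striated muscle list as a covariate the median of the connective tissue proteases was -1.82. On the log2 scale no member of any list passed the adjusted test.

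**Figure D5:**
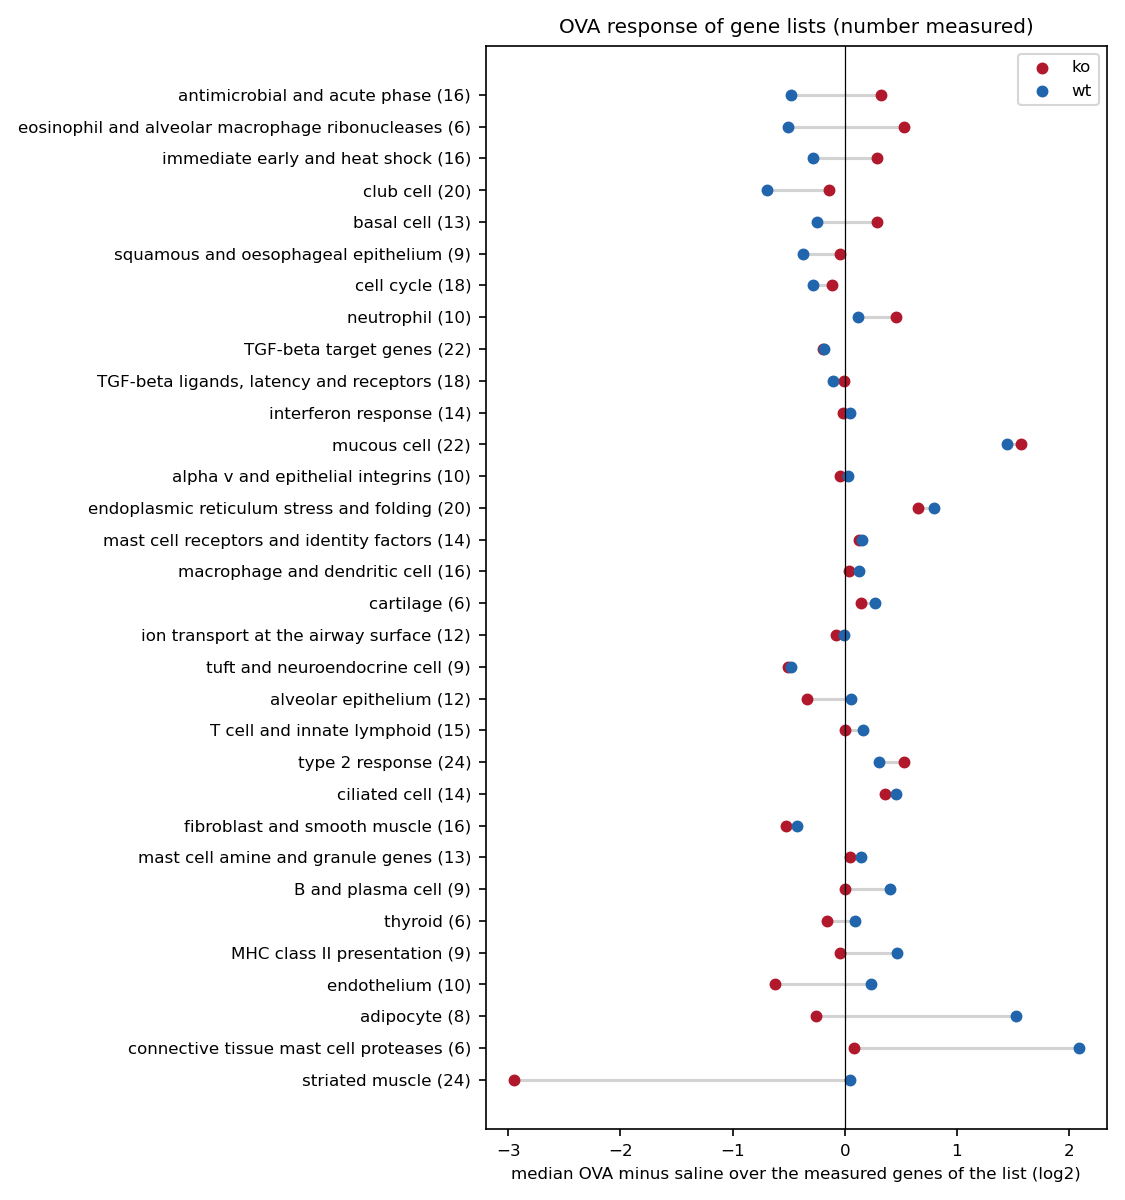
Median OVA response (OVA minus saline, log2) over the measured genes of each list with 6 or more measured, in ko (red) and wt (blue), with the number measured in brackets. The mucous cell list lies at 1.58 in ko and 1.45 in wt, and the connective tissue proteases at 0.08 and 2.09.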

How the data were processed

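Per the labels' protocols, Cy3 was put on cRNA made from 0.5 ug of RNA for each of 16 one-colour 4x44K arrays. Per the file headers, Feature Extraction 10.5.1.1 wrote the deposited intensity values, which are processed and background-subtracted. The submitters' processing notes name release 10.1. A deposited table of log2 values, with array medians of 5.90 to 5.94, served as an alternative. Normexp, another alternative, used median spot signals.

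Control and flagged spots were left out. Each array's signals were scaled to its own 75th percentile, floored at -3.32 (log2) and log2 transformed. The filter kept 25623 of 41174 probes, those above background by the scanner's flag on 4 or more of 16 arrays. The brightest probe stood for each gene, leaving 18569 genes and transcripts, 12853 with a RefSeq symbol (GRCm38.p6). Symbols were matched by accession. Promoters were aligned globally in Biopython 1.88.

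One limma 3.58.1 model (R 4.3.3) held a mean for every group, with Benjamini-Hochberg adjustment at 0.05 over all genes, on the log2 scale and on the unlogged signal. SEs of linear values come from the group SDs, and adjusted p from the limma fit. The test was checked on simulated data with a normal spread and no floor, which does not cover genes with groups at the floor. The number of arrays limits the precision. The labels do not say that samples are separate mice, so p-values measure the spread between these samples.

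Named genes were Itgb6, the measured members of 4 mast cell lists, the 12 genes with the smallest p in each direction, 1 gene of smallest p in each other list, and genes called on the linear scale. Others are said to have been chosen after their values were seen. The members and lists were chosen with earlier results of these data known. Alternatives covered scaling, background, floor, filter, probe choice, blocks, a striated muscle covariate, weights and leaving out each array.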

Additional observations from a re-analysis of the deposited data

Results flagged for a closer look

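The linear interaction of Clec4n, 0.993 in units of the 75th percentile, was the 1 value whose response differed between the genotypes by the adjusted test. Its loss when single arrays are left out is given above.

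Among the 89 named genes, 313 groups of 4 arrays with differing log2 values were examined for 1 array far from the others, by Dixon's ratio of the gap to the range at its 95% critical value. This held for 44 of them (14.1%), where chance gives about 1 in 20 under a normal spread. In 26 of the 44 the other 3 arrays lay at the floor, where any value above it is far from the rest. In ko_OVA these were Adora3 -3.29 (ko_OVA 4), Col9a2 -3.13 (ko_OVA 4), Ear10 -2.38 (ko_OVA 4), Eng -3.27 (ko_OVA 3), Fpr2 -3.05 (ko_OVA 2) and Gata1 -2.69 (ko_OVA 4). In ko_saline these were Chil4 -0.96 (ko_saline 3), Ear10 -2.49 (ko_saline 3), Mcpt2 -2.93 (ko_saline 1) and Slc5a5 -2.29 (ko_saline 2). In wt_OVA these were Cd2 -1.16 (wt_OVA 1), Fpr1 -2.81 (wt_OVA 1), Gata1 -2.49 (wt_OVA 1), Hpgds -2.17 (wt_OVA 1), Il13 -3.20 (wt_OVA 1), Il4 -2.92 (wt_OVA 1), Rprm -2.97 (wt_OVA 1), Slc5a5 -2.65 (wt_OVA 1) and Tpsg1 -3.31 (wt_OVA 2). In wt_saline these were Col9a2 -2.43 (wt_saline 2), Il13 -3.24 (wt_saline 2), Mcpt2 -3.13 (wt_saline 4), Mitf -3.23 (wt_saline 1), Rprm -3.13 (wt_saline 1), Slc26a4 -3.27 (wt_saline 2) and Tph1 -3.24 (wt_saline 4). In the other 18 the remaining arrays were not all at the floor. In ko_OVA these were Cma1 5.55 (ko_OVA 4), Dclk1 -1.56 (ko_OVA 2), Hs6st2 0.88 (ko_OVA 4), Itgb6 -1.71 (ko_OVA 2), Mcpt1 -2.04 (ko_OVA 2), Slc18a2 -0.64 (ko_OVA 4) and Tpsb2 3.36 (ko_OVA 4). In ko_saline these were Cd79b 0.045 (ko_saline 4), Csf2rb2 -1.10 (ko_saline 4), Cytip 0.83 (ko_saline 3), Gata2 -1.04 (ko_saline 4), Il1b -2.54 (ko_saline 1) and Tpsb2 2.62 (ko_saline 1). In wt_OVA these were Cd79b 2.07 (wt_OVA 1), Ndst2 1.11 (wt_OVA 4), Scin 3.35 (wt_OVA 2) and Slc18a2 -2.44 (wt_OVA 1). In wt_saline it was Csf2rb2 -0.58 (wt_saline 3). Array wt_OVA 1 held 10 of the 44 and ko_OVA 4 held 8. Array wt_OVA 1 had the largest share of probes well above background (74.5%) and ko_OVA 4 the smallest (43.3%). The next largest shares were 73.2% on wt_OVA 2 and 62.8% on ko_saline 3. The part of array quality in these values was not tested.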

How the results depend on the processing

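The count of genes called on the log2 scale was 0 under every setting except slide as a fixed block (1, Fpr1) and array weights (1, Tph1), and it was 0 to 3 when 1 array was left out. The count on the linear scale was 1 (Clec4n) except 0 with array position as a fixed block, 0 with the replicate block and 0 with only the 2 slides that hold all 4 groups, and it was 0 to 2 when 1 array was left out. The cause was not tested. Scaling by the median moved the median interaction of all genes to 0.28, against 0.01, and the genes at an unadjusted p under 0.05 to 305 higher and 110 lower, against 279 and 290. Replicate numbers did not pair the arrays: same-numbered arrays of different groups had correlations of deviations between -0.40 and 0.41 over 24 pairs, with a median of -0.01. The replicate block left 0 genes called on the log2 scale. Interactions that changed sign were with median scaling Alox5 0.17, Ccdc39 0.054, Csf2rb2 0.17, Gata1 0.17, Il13 0.030, Mitf 0.0032, Muc5ac 0.14 and Ptgs1 0.28, with array position as a fixed block Alox5 0.077, Csf2rb2 0.042, Fcer1a 0.072, Hdc -0.11, Muc5ac 0.084 and Ptgs1 0.059, with only the 2 slides with all 4 groups Alox5 0.60, Csf2rb -0.24, Fcer1a 0.063, Fcer1g -0.11, Il3ra -0.58, Itln1 -0.65, Ndst2 -0.30 and Scgb1c1 -0.36, with striated muscle covariate Alox5 0.17, Clca1 -0.14, Csf2rb2 0.16, Gata1 0.15, Il13 0.0098, Scgb1c1 -0.24 and Slc18a2 0.052, with normexp background Clca1 -0.045, Gata1 0.14, Hdc -0.079, Il13 0.26 and Scgb1c1 -0.15, with array weights Clca1 -0.12, Gata1 0.052, Il13 0.0059 and Slc4a1 -0.51, with mean over probes Dclk1 -0.012, with no floor, log2 of signal + 1 Fcer1a 0.054, Gata1 0.0042, Il13 0.024, Scgb1c1 -0.29 and Sftpb -0.063, with quantile normalization Gata1 0.18, Hdc -0.088 and Il13 0.033, with series matrix values Gata1 0.13, Hdc -0.13, Il13 0.37, Scgb1c1 -0.069 and Slc6a4 0.20, with floor lower by 2 Il13 0.58. When 1 array was left out the sign changed for these genes, over these ranges: Alox5 -0.27 to 0.022, Clca1 -0.81 to 0.59, Csf2rb -0.28 to 0.56, Csf2rb2 -0.43 to 0.14, Fcer1a -0.30 to 0.029, Fcer1g -0.16 to 0.44, Gata1 -0.21 to 0.16, Hdc -0.079 to 0.15, Hs3st1 -0.058 to 0.48, Il13 -0.029 to 0.020, Mrgprb2 -0.25 to 0.031, Muc5ac -0.55 to 0.46, Ndst2 -0.057 to 0.24, Ptgs1 -0.11 to 0.16, Scgb1c1 -0.38 to 0.40, Slc18a2 -0.37 to 0.025 and Slc4a1 -0.32 to 1.39. None of these passed the adjusted test in either direction. The OVA and genotype responses of named genes that passed still did so in 2373 combinations of gene and setting and no longer did in 347, with 0 reversed. Of the mast cell genes 26 of 35 lay below 0 as reported, 25 with the floor lower by 2 and 23 with no floor and 1 added. In that last setting the interaction was -1.61 for Mcpt1, -0.41 for Mcpt2, -1.65 for Mcpt4 and -0.77 for Cpa3. It was -0.34 for Tpsb2, -0.26 for Cma2, -0.91 for Cma1 and -0.32 for Il1rl1, so the sizes depend on the treatment of dim signals. Dim probes limit the values at the floor, which are bounds.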
